A study of Mus musculus with 18 samples.

Results

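Transcript levels of 4 protease inhibitor genes, Wfdc21, Csta2, Slpi and Cst3, were followed through a foreign body response on 18 mouse bead arrays. The 4 were selected on their intensities in these arrays, as secreted or cytosolic inhibitors described as rising after implantation and lost from the tissue capsule. The deposited tables hold 1 probe for each, among 10806 genes tested. All cells came from MacGreen mice (C57Bl/6J), a reporter line that makes EGFP in myeloid cells from the promoter of Csf1r. The mice were 10 to 16 weeks old. A sterile object was placed in the peritoneal cavity, and RNA was taken from pooled cells sorted for bright EGFP. The cavity was washed out at day 2, 4, 7 and 14, and in mice without an implant (day 0, the unstimulated control). Tissue capsules from other mice were digested with collagenase at day 7, 14, 21 and 28. Each of these 9 groups had 2 arrays, and nothing in the labels says that the pair came from separate animals, so p-values measure only the spread between arrays, which may be technical. Of 11 myeloid identity genes, 9 were measured and were detected on both arrays of every group; Csf1r was not among them. In sorted bulk RNA, fewer cells of a type and less RNA per cell cannot be told apart. Capsule day 14 was hybridised on slide 3 and days 21 and 28 on slide 4, with mean intensities of 455 to 528 per array against 585 to 1053 on slides 1 and 2. The slide and the difference of capsule day 14, or of days 21 and 28, from all other groups cannot be told apart, while capsule day 7 and all lavage groups share slides 1 and 2. More probes were detected on slides 3 and 4 (18311 to 19345) than on slides 1 and 2 (16442 to 17559). On slides 3 and 4 Wfdc21 read 76 to 329 and Csta2 75 to 229.

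Wfdc21 encodes a small secreted protein with a whey acidic protein (WAP) domain, the fold that several inhibitors of serine proteases use. Slpi, the secretory leukocyte protease inhibitor, belongs to the same family and blocks neutrophil elastase and cathepsin G. Csta2 is a stefin A, a cytosolic inhibitor that occupies the active site of cysteine cathepsins, and Cst3, cystatin C, is the secreted inhibitor of the same enzymes and is made by most cells. Macrophages and neutrophils carry both kinds of target enzyme, and inhibitors of these families are thought to limit damage when such enzymes escape from lysosomes or granules.

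Wfdc21 and Csta2 were each undetected before implantation, detected after it and near background in the oldest capsules. Csta2 was nevertheless brightest in the capsule at day 7, Slpi was brightest in the cavity before any implant, and Cst3 stayed within a narrow band near the top of the scale. Groups are given as the raw intensity of each array and the mean ± SD of normalised log2 intensity over 2 arrays, and "not detected" means not above the negative controls at a detection p of 0.05. Because the choice of the genes used the differences from day 0 and the capsule values, those are described without a test. Changes among implanted mice from lavage day 2 to 4, 4 to 7 and 7 to 14 were tested in limma, with adjustment over all genes.

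**Figure D1:**
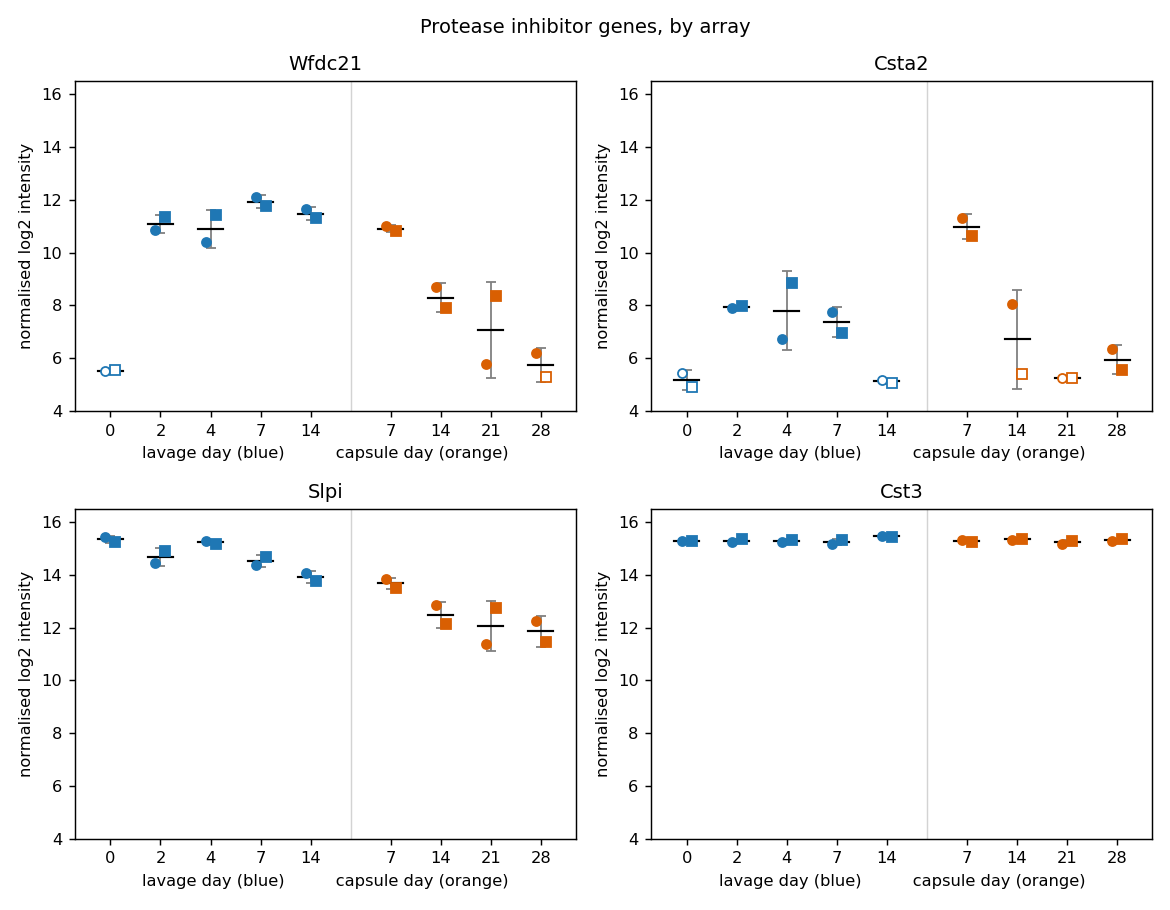
Normalised log2 intensity of the 4 genes on each array, by day, for lavage (blue) and capsule (orange). Circles are replicate 1 and squares replicate 2, open symbols were not detected, black bars are means and grey bars SD (n = 2). Wfdc21 runs from 5.53 at lavage day 0 to 11.93 at lavage day 7 and back to 5.74 at capsule day 28, while Csta2 peaks at 10.97 in the capsule at day 7.

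Upstream sequence is given for Csta2 and Slpi, because they peaked in different places, the day 7 capsule and the unstimulated cavity. Both are the 250 bases before the annotated start in RefSeq, build GRCm38.p6, written 5′ to 3′ on the gene's strand: Csta2 at chr16:36221312-36221561, plus strand, and Slpi at chr2:164356508-164356757, minus strand. Capitals mark matches, on either strand, to the C/EBP-type letters TTNCNNAA or to the E-box CACGTG.
Csta2: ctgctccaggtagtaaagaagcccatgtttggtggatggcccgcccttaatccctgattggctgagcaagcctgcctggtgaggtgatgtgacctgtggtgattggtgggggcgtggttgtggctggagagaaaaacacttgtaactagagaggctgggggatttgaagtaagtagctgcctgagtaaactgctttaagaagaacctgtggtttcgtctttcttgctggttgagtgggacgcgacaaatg
Slpi: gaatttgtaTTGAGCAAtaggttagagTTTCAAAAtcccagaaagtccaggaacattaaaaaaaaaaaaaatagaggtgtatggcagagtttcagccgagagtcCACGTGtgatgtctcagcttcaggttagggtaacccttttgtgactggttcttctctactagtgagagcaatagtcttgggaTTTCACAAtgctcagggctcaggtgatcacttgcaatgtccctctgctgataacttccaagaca
Slpi held 3 C/EBP-type matches, whose first bases lie at -241, -223 and -64 from the start, and 1 E-box at -146. Of 32851 promoter windows of this length, 36.8% held a C/EBP-type match and 6.02% an E-box. Csta2 held no match to either, nor to the PU.1-type GAGGAA, in 23.3% of windows. The Cst3 window, not shown, held 1 GAGGAA. These are letter matches in a window and do not show binding.

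Wfdc21 was not detected in the unstimulated cavity, where its intensity was 146 and 144. At lavage day 2 it read 2938 and 3705, at day 4 it read 2266 and 4642, at day 7 it read 5788 and 5127, and at day 14 it read 2541 and 2418. All 8 arrays from implanted cavities thus lay far above both day 0 arrays. On the normalised scale the lavage means were 5.53 ± 0.04, 11.09 ± 0.34, 10.90 ± 0.73, 11.93 ± 0.25 and 11.47 ± 0.24 from day 0 to day 14. Since day 0 gave only a bound, day 4 was at least 38.9-fold higher and day 7, the brightest group, at least 79.5-fold higher. These bounds hold on the normalised scale only. Without background correction the differences were 17.1-fold at day 4 and 34.2-fold at day 7. Within the implanted cavity the level did not pass the test at any step. The change was -0.19 from day 2 to 4 (SE 0.60, limma adjusted p = 0.897), 1.03 from day 4 to 7 (SE 0.60, adjusted p = 0.328) and -0.47 from day 7 to 14 (SE 0.60, adjusted p = 0.667). The 95% interval of the day 4 to 7 change, -0.25 to 2.32, leaves room for a rise of several fold, and the 2 slides gave 1.73 and 0.34.

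In the capsule the mean of Wfdc21 was lower at each later day. The day 7 arrays read 2135 and 2130 (10.91 ± 0.13), close to lavage day 2 and 4 and 2.03-fold below lavage of the same day, by 1.11 log2 on one slide and 0.94 on the other. At day 14 the arrays read 329 and 203 (8.30 ± 0.54), at day 21 they read 91 and 249 (7.07 ± 1.81), and at day 28 they read 102 and 76 (5.74 ± 0.64), with only the first of the last pair detected. Capsule day 14 was 9.0-fold below lavage day 14. Capsule day 28 was 36.0-fold below capsule day 7 on the normalised scale, 16.0-fold without background correction and 68.6-fold in the authors' log2 values. Capsule day 14 overlapped with day 21 and day 21 with day 28, and the day 21 arrays differed by more than the steps on either side. In the order of the 9 groups, lavage day 7 stood above lavage day 14 without overlap. Lavage day 14, lavage day 2, capsule day 7 and lavage day 4 overlapped from each to the next, and a gap of 2.61 log2 separated them from the late capsule groups and day 0.

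A list of 15 neutrophil markers, 11 of them measured, summed to 9787 to 9963 normalised units at lavage day 0, 55870 to 81762 at day 2 and 54392 to 68715 at day 4, with S100a8 and S100a9 the brightest at day 2 and 4, and with Ltf, Cxcr2, Mmp8 and Retnlg undetected at day 0 and Mmp8 alone at day 2 and 4. At lavage day 7, where Wfdc21 was brightest, the sum was 5682 to 6187, and at day 14 it was 3202 to 3974. The sum hides differences between its members. Csf3r, a cytokine receptor of granulocytes and monocytes, made up most of it at day 0 (12.78 ± 0.11 on the normalised log2 scale) and read 10.30 ± 0.22 at lavage day 7. S100a8 was 9.57 ± 0.31 at day 0 and 11.07 ± 0.11 at lavage day 7, and Retnlg, undetected at day 0, read 10.39 ± 1.12 at lavage day 2, 10.21 ± 0.063 at day 7 and 8.44 ± 0.31 at day 14. At lavage day 7, S100a8, S100a9, Cxcr2, Ltf and Retnlg were above day 0, while Csf3r, Cd177 and Lcn2 were below it. Cd177 went from 7.79 to 6.20 and Lcn2 from 7.58 to undetected. Camp read 6.68 at day 0 and 6.74 at lavage day 7, and Mmp8 was undetected at both. Of the 13 resident peritoneal macrophage markers, 11 were measured and detected on both arrays of every group. Their sum was 182832 to 198672 at day 0, 32232 to 45715 at lavage day 2 and 75830 to 96600 at day 4. It was 57048 to 64891 at lavage day 7 and 103095 to 126416 at day 14. In the capsule the sum was 36261 to 37627 at day 7 and 63621 to 65690 at day 14. Later capsules gave 56216 to 61844 at day 21 and 48015 to 53698 at day 28. Fibroblast markers (4 measured of 8) summed to 172 to 269 in lavage, 344 to 531 at capsule day 7 and 1391 to 1829 in later capsules. Wfdc21 was dimmer in those later capsules than at capsule day 7. It was dimmest at lavage day 0, where the fibroblast sum was 210 to 226. The part of these cells in the Wfdc21 levels was not tested.

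Csta2 had a different course. It was not detected at lavage day 0, with intensities of 143 and 97, and read 446 and 445 at day 2, 252 and 901 at day 4, and 387 and 293 at day 7. At lavage day 14 both arrays, 88 and 94, were again undetected. The lavage means from day 0 to 14 were 5.18 ± 0.39, 7.94 ± 0.03, 7.80 ± 1.49, 7.36 ± 0.57 and 5.13 ± 0.08. On this scale the level was therefore at least 4.99-fold, 4.52-fold and 3.34-fold above day 0 at day 2, 4 and 7. Without background correction the differences were 3.33-fold, 3.25-fold and 2.51-fold. At day 14, where Wfdc21 remained bright, Csta2 was not detected. Day 2 to 4 and day 4 to 7 gave changes of -0.14 (limma adjusted p = 0.934) and -0.43 (adjusted p = 0.782), each with an SE of 0.71, and the slides pointed opposite ways in both. From day 7 to 14 the fitted change was -2.24 (SE 0.71), with day 7 at least 3.02-fold higher and -2.58 and -1.90 within the slides. Its limma adjusted p was 0.0509, just beyond the threshold. The fit with the replicate number as a block, a pairing that the labels give by slide, used the 12 arrays of slides 1 and 2 and gave 0.0293, and the same arrays without the block gave an adjusted p of 0.0193. In all, 5 of 13 alternatives called this change, none of them with a single array left out.

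The capsule at day 7 held the brightest Csta2 signal of the series, 2655 and 1888 (10.97 ± 0.48). It was 12.2-fold above lavage of the same day, and both slides gave that direction, by 3.55 and 3.68 log2, which is opposite to the lower Wfdc21 and Slpi of the same arrays. A week later the capsule arrays read 229 and 88 (6.72 ± 1.87), the second of them undetected. At day 21 both, 75 and 77, were undetected, and at day 28 they read 106 and 85 (5.95 ± 0.55), dim but detected. Capsule day 7 was thus 19.1-fold above capsule day 14, a difference of 10.8-fold without background correction and 30.1-fold in the authors' log2 values. Against day 28 the same 3 values were 32.6-fold, 15.4-fold and 53.5-fold. Capsule day 14 lay above lavage day 14, by at least 1.93-fold, on the strength of 1 detected array. In the order of groups, capsule day 7 stood 3.03 log2 above the next, lavage day 2. Lavage day 2, lavage day 4, lavage day 7, capsule day 14 and capsule day 28 overlapped from each to the next, as did capsule day 21, lavage day 0 and lavage day 14, none of which was detected. At capsule day 7 the neutrophil list summed to 7574 to 10039, against 2070 to 4754 in later capsules. The list summed to 55870 to 81762 at lavage day 2 and 54392 to 68715 at day 4, where Csta2 was dimmer than at capsule day 7. At lavage day 0, where Csta2 was undetected, it was 9787 to 9963, most of it Csf3r. The members differed at capsule day 7. Mmp8 (6.34 ± 0.51), detected in no other group, Retnlg (10.18 ± 1.01) and S100a9 (9.55 ± 0.96) were above lavage day 0. Csf3r (10.20 ± 0.05), Cd177 (5.70 ± 0.23) and Lcn2 (undetected) were below it. Whether neutrophils carried the Csta2 signal was not tested.

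Slpi was not higher after implantation. Its arrays read 53319 and 46078 in the unstimulated cavity (15.34 ± 0.12), 28469 and 35444 at lavage day 2 (14.67 ± 0.35), and 49262 and 46316 at day 4 (15.23 ± 0.09). They read 26356 and 34469 at day 7 (14.53 ± 0.22) and 13770 and 13153 at day 14 (13.91 ± 0.22). Day 14 was thus the lowest of the lavage groups, 2.69-fold below day 0, and day 4 overlapped with day 0. The steps among implanted mice were 0.56 (limma adjusted p = 0.392), -0.70 (adjusted p = 0.284) and -0.61 (adjusted p = 0.323), with an SE of 0.37 each. Their 95% intervals, -0.25 to 1.36, -1.51 to 0.10 and -1.42 to 0.19, each include 0. Both day 0 arrays reached 66.1% or more of the brightest spot on their array, so differences among the brightest lavage groups can be compressed.

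Slpi was lower again in the capsule. The arrays read 15956 and 13454 at day 7 (13.67 ± 0.22), 5463 and 2633 at day 14 (12.48 ± 0.51), 1659 and 4589 at day 21 (12.06 ± 0.95), and 3097 and 1795 at day 28 (11.85 ± 0.58). The day 7 capsule was 1.81-fold below lavage of the same day, by 0.54 and 1.16 log2 within the slides, and capsule day 14 was 2.71-fold below lavage day 14. From day 7 to day 28 the capsule level differed by 3.53-fold. With each array scaled by its median, these 3 differences were 1.49-fold, 1.60-fold and 2.38-fold in the same direction. The day 14, 21 and 28 arrays overlapped. Slpi remained detected on every array.

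Cst3 was bright and level on all 18 arrays. Group means of normalised log2 intensity lay between 15.23 ± 0.08 at capsule day 21 and 15.45 ± 0.0048 at lavage day 14, and the whole range over arrays was 0.28. Raw intensities were 41730 to 52459 on the 12 arrays of slides 1 and 2 and 26625 to 31468 on slides 3 and 4, or 65.1% to 77.1% of each array's brightest spot. The lavage steps were -0.02 (limma adjusted p = 0.956), -0.02 (adjusted p = 0.953) and 0.20 (adjusted p = 0.317), with an SE of 0.12. For a spot this bright, quantile normalisation assigns nearly the same value by rank on every array. With each array scaled by its median instead, Cst3 ran from 14.53 at lavage day 4 to 15.53 at lavage day 14 and 16.32 at capsule day 14, and the day 7 to 14 lavage step became 0.86 (limma adjusted p = 0.00537). The level of Cst3 across groups therefore depends on the scaling, and the late capsule groups sit on slides of their own.

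**Figure D2:**
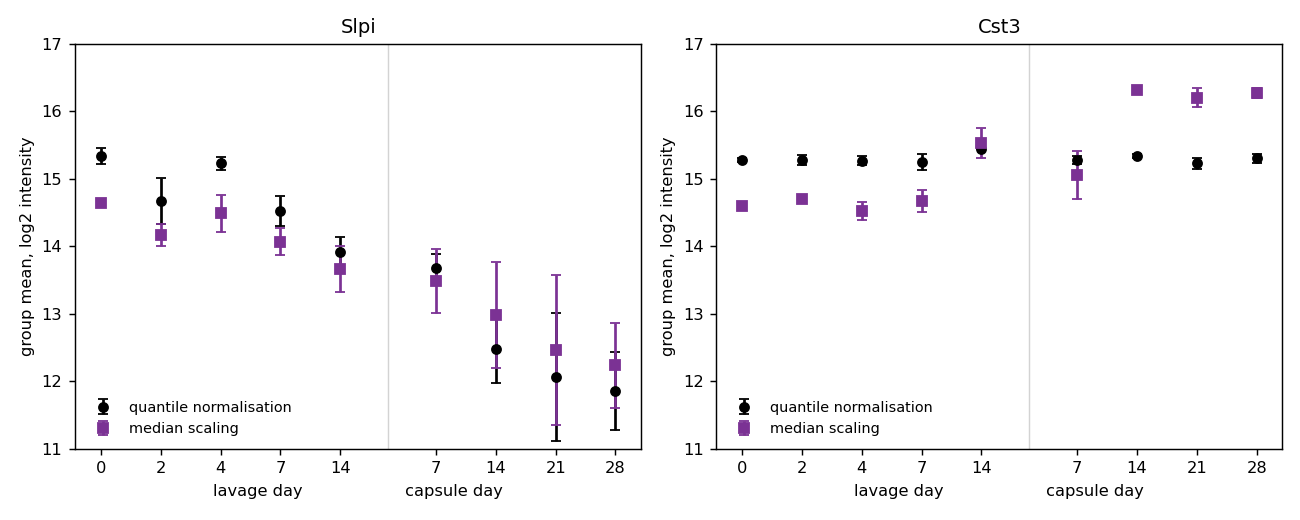
Group means ± SD (n = 2) of log2 intensity for Slpi and Cst3 with quantile normalisation (black circles) and with each array scaled by its median (purple squares), by lavage and capsule day. Slpi runs under both from 15.34 or 14.65 at lavage day 0 to 11.85 or 12.24 at capsule day 28, whereas Cst3 is flat under the first and reaches 16.32 under the second.

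Of the 12 tests on these genes, 0 passed an adjusted p of 0.05 in limma and 1, Csta2 from day 7 to 14, had an unadjusted p under 0.05. Over all genes, 11.4% were called from lavage day 2 to 4 (6.77% higher and 4.64% lower), 10.5% from day 4 to 7 (4.48% and 6.00%) and 13.2% from day 7 to 14 (6.34% and 6.86%). A count of 0 in 12 is near those background shares.

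The 4 genes did not move as a unit. Over the 18 arrays, Pearson's r was 0.53 for Wfdc21 with Csta2 and 0.46 for Wfdc21 with Slpi, and the other 4 pairs gave -0.22 to 0.21. The arrays of these correlations share slides and groups, so they are descriptions. The genes most like Wfdc21 were Cebpe (r = 0.92), a transcription factor of granulocyte maturation, Map4k1 (0.89), Rab44 (0.89), Nrros (0.88) and Cox5a (0.88). Those most like Csta2 were Fads1 (r = 0.91), a fatty acid desaturase, Fdps (0.88), an enzyme of the sterol pathway, St18 (0.88), Mrtfb (0.88) and Fam83f (0.87). Slpi ran closest to Pms2 (r = 0.97), a DNA mismatch repair gene, Rin3 (0.96), Ptpn18 (0.95), Ndufa4 (0.94) and Tedc2 (0.94). For Cst3 the highest r was 0.75, for Trim46 and Ntrk3, followed by Fbxo16 (0.73), Olfr632 (0.73) and Nrg1 (0.72), over a Cst3 range of only 0.28 log2.

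Csta2 lies on chromosome 16 in a run of stefin A genes, between Csta3 and Stfa1. Stfa2, another stefin A, was not detected at lavage day 0, read 1952 and 961 at day 2 and 365 and 1002 at day 4, and was undetected at lavage day 7 and 14. In the capsule it read 252 and 238 at day 7, was detected on 1 array at day 14 and on none later. A second Stfa2 probe was detected on both arrays of lavage day 2 (486 and 259) and on 1 of day 4 (299), but not at capsule day 7 (116 and 131). Stfa2 rose from day 0 to 2 by at least 17.4-fold (limma adjusted p = 3.23e-06) and fell from day 4 to 7 by at least 5.95-fold (adjusted p = 0.00115). It was at least 3.05-fold higher in capsule than lavage at day 7 (limma adjusted p = 0.00869), a call lost without the first capsule day 7 array (adjusted p = 0.0703) or the second lavage day 7 array (adjusted p = 0.0535). Its fall from day 2 to 4 (-1.51, adjusted p = 0.038) was not called in the authors' values (limma adjusted p = 0.14), with no detection filter (adjusted p = 0.0687), with the compared arrays alone (adjusted p = 0.16), with the replicate block (adjusted p = 0.062) or without the first array of day 2 (adjusted p = 0.273) or of day 4 (adjusted p = 0.406). Stfa2l1 read 710 and 705 at day 2 and 318 and 413 at day 4 and was detected in no other group. A second Stfa2l1 probe was detected on no array. The kept probe rose by at least 8.47-fold from day 0 to 2 (limma adjusted p = 1.16e-08). It fell by at least 3.23-fold from day 4 to 7 (limma adjusted p = 4.16e-06). Stfa2 and Stfa2l1 passed the detection filter only through groups where they were bright, so tests of those groups against undetected ones lend no support. Cstdc5, chosen after its values were seen, read 670 and 262 at day 2 and 163 and 274 at day 4 and was undetected elsewhere. The difference between Csta2 and these genes was not tested, and probes of such close relatives may share signal. Lavage day 2 and 4, where all 3 of these relatives were detected, were also the groups with the highest neutrophil marker sums given above. At capsule day 7, where Stfa2 was also detected, the sum was 7574 to 10039. It was 9787 to 9963 at lavage day 0, where Stfa2 was not detected. The part of neutrophils was not tested.

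Cstb, or stefin B, the widely expressed stefin, was detected on every array. It rose by 1.11 log2 from lavage day 0 to 2 (SE 0.14, limma adjusted p = 4.66e-05), fell by 0.92 from day 7 to 14 (adjusted p = 0.000792) and was higher by 0.72 in capsule than lavage at day 7 (adjusted p = 0.0019). These are the directions that Csta2 had at the same steps, with raw values of 15891 and 16641 at day 0, 9396 and 12874 at lavage day 14 and 45802 and 43166 at capsule day 7. Later in the capsule the courses differed. Cstb means were 15.28 ± 0.10 at day 7 and 15.21 ± 0.10 at day 28, between which Csta2 was 32.6-fold lower. Spots as bright as Cstb are set largely by rank in quantile normalisation, as described for Cst3. Stfa3 was measured but not detected on any array.

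**Figure D3:**
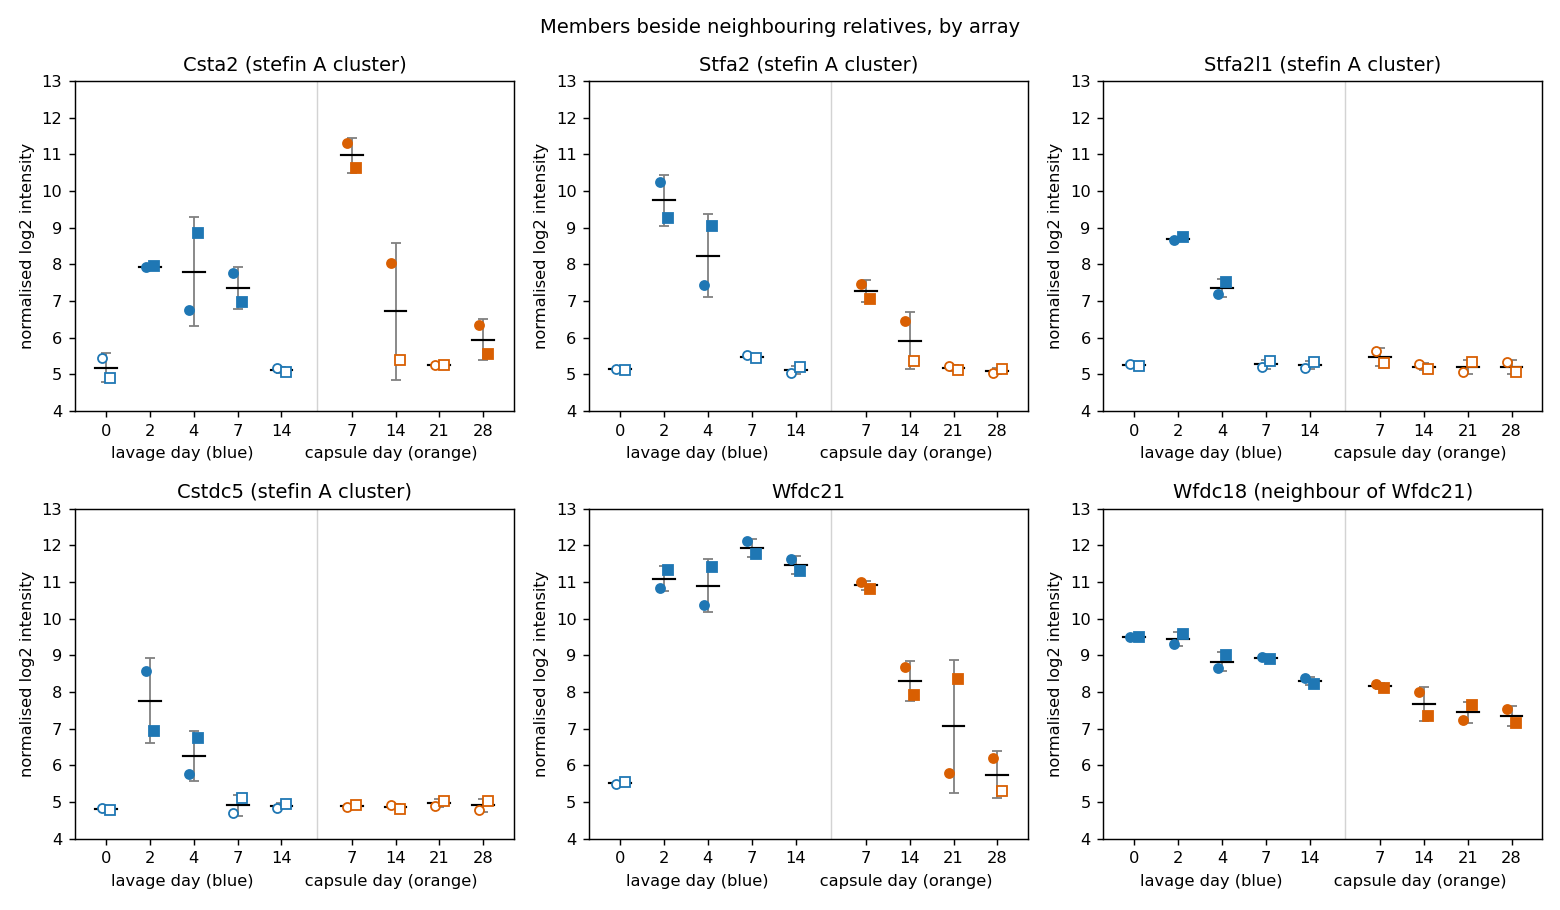
Normalised log2 intensity by array for Csta2, 3 stefin A relatives, Wfdc21 and its neighbour Wfdc18, with symbols and bars as in the plot of the 4 genes. Stfa2, Stfa2l1 and Cstdc5 are highest at lavage day 2, Csta2 at capsule day 7, and Wfdc18 is detected on all arrays with its highest values at lavage day 0 and 2.

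Wfdc21 lies on chromosome 11 beside Wfdc18, a WAP gene chosen here after its values were seen. Wfdc18 read 1156 and 1068 in the unstimulated cavity, where Wfdc21 was not detected, and 319 and 362 at lavage day 14. It was 0.76 log2 lower in capsule than lavage at day 7 (SE 0.22, limma adjusted p = 0.0216), a call lost without any single one of the 4 arrays (adjusted p = 0.0634 to 0.108). It was 0.63 lower at day 14 (limma adjusted p = 0.038), a call lost with median scaling (-0.35, adjusted p = 0.223), in the authors' values (adjusted p = 0.0523), with no detection filter (adjusted p = 0.0562), with the compared arrays alone (adjusted p = 0.112) and without 3 of the 4 arrays in turn (adjusted p = 0.0697 to 0.383). It was 0.82 lower at capsule day 28 than day 7 (limma adjusted p = 0.0122), a call lost without the first array of capsule day 7 (adjusted p = 0.0689) or the second of day 28 (adjusted p = 0.114). The difference between the neighbours was not tested.

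The enzymes and the other inhibitors of these classes give the setting. Of 119 other inhibitor genes listed (WAP proteins, stefins and cystatins, serpins and others), 39 were measured, and of 33 lysosomal and granule proteases, 21. From lavage day 0 to 2, 6 inhibitors rose and 6 fell, 2 proteases rose and 9 fell, with 13.4% of all genes called higher and 11.8% lower (25.2% in all). The median change was -0.02 over the inhibitors, -0.37 over the proteases and 0.04 over all genes. Prtn3, proteinase 3, a serine protease that neutrophils and monocytes store, fell by 1.47 (limma adjusted p = 0.00142), and Timp1, a metalloproteinase inhibitor, rose by 4.66 (SE 0.29). From day 2 to 4 the counts were 4 up and 4 down for inhibitors and 3 up and 2 down for proteases. Of all genes, 6.77% were called higher and 4.64% lower at that step (11.4% in all). From day 4 to 7, when Wfdc21 reached its highest mean, 4.48% of all genes were called higher and 6.00% lower (10.5% in all). The inhibitors then gave 4 up and 4 down, and the proteases 7 up and 0 down. Elane, neutrophil elastase, the classic target of Slpi, was among the latter, at 1.33 (limma adjusted p = 0.0136), a call lost without the first array of day 7 (adjusted p = 0.117) or the second of day 4 (adjusted p = 0.11). From day 7 to 14, 2 inhibitors rose and 2 fell and 1 protease rose and 7 fell. Of all genes, 6.34% were called higher and 6.86% lower there (13.2% in all). With median scaling, where the median of all genes was -0.15, these splits were 1 to 3 and 1 to 5. Over all genes it called 1525, of which 18.4% were higher.

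Between capsule and lavage at day 7, 10 inhibitors were higher and 5 lower, and 4 proteases were higher and 8 lower, with 11.7% of all genes called higher and 12.6% lower (24.3% in all). Of 13 cathepsin and legumain genes measured, 3 were higher and 3 lower. Higher were Ctsk, a collagen-degrading cathepsin, by 2.61, Ctss by 0.80 (limma adjusted p = 0.00569) and Lgmn, the cystatin-sensitive legumain, by 0.91 (adjusted p = 0.000433). Lower were Ctsa (-1.40, limma adjusted p = 0.000206), Ctse (-1.64, adjusted p = 0.0239) and Ctsf (-1.02, adjusted p = 0.0189), of which Ctsa is a serine and Ctse an aspartic protease. The Ctss call was lost without the second lavage day 7 array (limma adjusted p = 0.0868), the Ctsf call without any single one of the 4 arrays (adjusted p = 0.0536 to 0.104), and the Ctse call without the first lavage array (adjusted p = 0.149) or the second capsule array (adjusted p = 0.154). The median change was 0.13 over the inhibitors, 0.04 over the proteases and -0.02 over all genes. At day 14, 7 inhibitors and 4 proteases were higher and 5 and 2 lower (of all genes, 16.8% higher and 18.6% lower, 35.4% in all), and from capsule day 7 to 28, 10 and 3 rose and 5 and 7 fell (16.3% and 15.1%, 31.4% in all). With median scaling the median change over all genes was 0.39 and 0.29 in these last comparisons, against -0.02 and 0.01 with quantiles. The splits were then 12 to 4 and 8 to 0 at day 14, and 17 to 4 and 7 to 2 from day 7 to 28. Of all genes, median scaling called 5228 at day 14, 82.7% of them higher, and 4727 from day 7 to 28, 78.9% of them higher. Ctss fell by 1.14 from capsule day 7 to 28 (limma adjusted p = 0.000476), and by 0.39 with median scaling (adjusted p = 0.138). The change from day 7 to 14 differed between capsule and lavage for 15 of the 60 genes, 12 of them with the higher change in the capsule, against 11.5% of all genes (4.67% higher and 6.81% lower). With median scaling 25 differed, 22 of them higher.

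**Figure D4:**
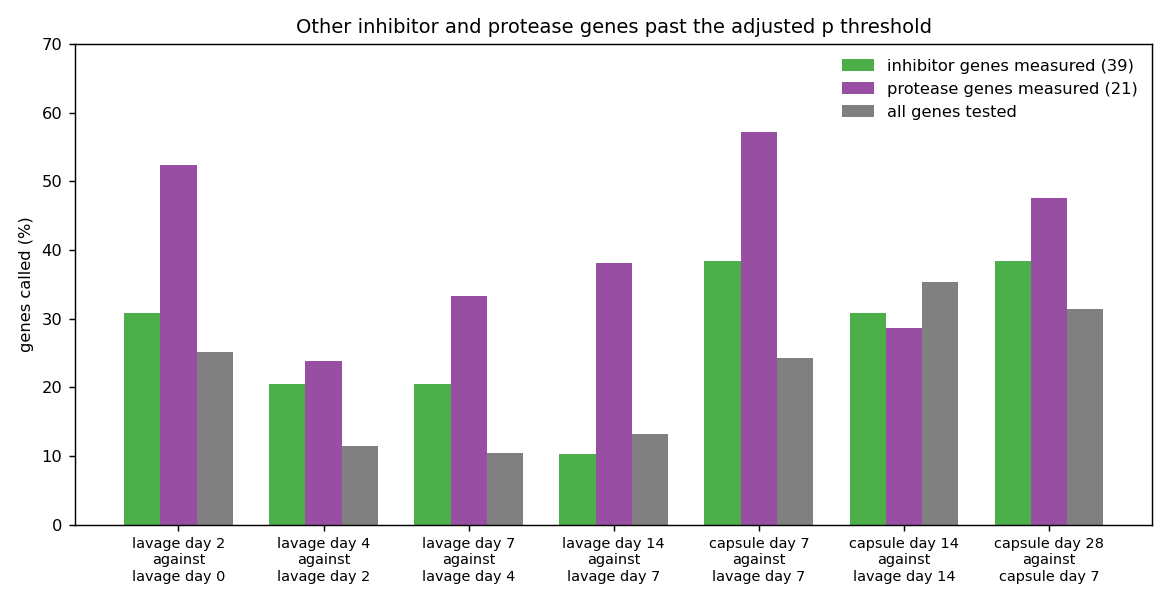
Percentage of genes past a limma adjusted p of 0.05 in each comparison, for the 39 other inhibitor genes measured (green), the 21 protease genes measured (purple) and all 10806 genes tested (grey). The protease share is above the grey bar in 6 of the 7 comparisons and below it at day 14 between capsule and lavage, where 28.6% of proteases and 35.4% of all genes were called.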

How the data were processed

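RNA from 18 pooled, sorted samples was measured on Illumina mouse bead arrays with 46632 probes. The deposited non-normalised table gives, per the file headers, the linear intensity of every probe on every array beside its detection p-value. The authors' deposited series values are log2 and served as an alternative. BeadStudio and R 2.15.3 appear in the submitters' processing notes, and how the authors corrected background is not stated there.

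Background correction and quantile normalisation used neqc (offset 16) from limma 3.58.1 in R 4.3.3. A probe was kept if some group detected it at p 0.05 on both of its arrays (20985 probes), and a gene was read from its kept probe of highest mean. Of the probes, 29976 had 1 gene symbol, 10 several and 16646 none; names are from the platform annotation, of which 29921 matched the reference by gene ID. A model with 1 mean per group (residual degrees of freedom 9, prior 4.85) was fitted to all arrays, with 2-sided tests and Benjamini-Hochberg adjustment within each comparison. A gene not detected in 1 of 2 groups has only a bound: the bright group's mean against the dim group's mean of, per array, the lowest signal of any detected probe, or the gene's own value where that is higher. Each bound holds for the main normalisation, and other background corrections can give lower folds. Marker sums add unlogged normalised levels. The fit was tested on simulated data.

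The 4 genes and all lists were chosen with earlier results of these data known. Named were the 4 genes, the 5 genes most correlated with each, stefin relatives, and up to 3 called list genes per direction and kind whose arrays did not overlap. Other genes named, among them Ctss, Ctsf and Ctsa at capsule day 7, were picked with their values in view. Labels place replicate 1 of the 6 groups on slides 1 and 2 on slide 1 and replicate 2 on slide 2, which pairs them. Deviations of same-numbered arrays correlated at -0.11 to 0.13 over 15 pairs of groups (median -0.0083). The number of arrays limits the precision.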

Additional observations from a re-analysis of the deposited data

Results flagged for a closer look

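Among other inhibitor and protease genes, the change from day 7 to 14 differed between capsule and lavage for 15 of 60 genes by a limma interaction term (11.5% of all genes), and the 9 named by the rule are given here as the capsule change minus the lavage change in log2. Among inhibitors it was 2.73 for Serpina3n (adjusted p = 0.000638), 2.18 for Serpinh1 (adjusted p = 0.0118), 1.68 for Timp3 (adjusted p = 0.0112), -2.09 for Tfpi (adjusted p = 0.0228) and -1.19 for Serpinb6b (adjusted p = 0.000922). Among proteases it was -1.59 for Ctss (adjusted p = 0.00175), 2.34 for Ctse (adjusted p = 0.0405), 2.38 for Mcpt4 (adjusted p = 0.00162) and 2.22 for Cma1 (adjusted p = 0.000225). Mcpt4 and Cma1 were undetected on both capsule arrays at day 7 and at day 14. Their terms rest mainly on a lower lavage level, from 7.33 to 4.84 for Mcpt4 and from 7.58 to 5.66 for Cma1. The calls of Tfpi and Ctse were the least steady: of 15 alternatives, 9 lost the first and 10 the second. Without the second capsule day 14 array Tfpi was -1.29 (limma adjusted p = 0.064), and without the first lavage day 14 array Ctse was 1.23 (adjusted p = 0.0773). Over these alternatives the adjusted p reached 0.0763 for Tfpi and 0.136 for Ctse. Serpinh1 was not called without the second array of lavage day 7 (limma adjusted p = 0.0508) or of capsule day 7 (adjusted p = 0.056), and Timp3 not without the second of capsule day 14 (adjusted p = 0.0544). The calls of the other 5 held under all 15. Of these, Serpina3n was detected on both arrays only at capsule day 14, 21 and 28. Serpinb6b was detected on both only at lavage day 4 and capsule day 7 and 21. Each passed the detection filter only through groups where it was bright, so their terms lend no support. Capsule day 14 lies on a slide of its own, so the slide and this difference cannot be told apart, and values of genes undetected in a group depend on the background. Of the 4 inhibitors the report is about, none was tested for this difference, because the choice of the genes used the capsule values.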

How the results depend on the processing

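Each of the 12 tests on the 4 genes was repeated under 13 alternatives: other background corrections, median scaling, the authors' log2 values, other detection filters, the compared arrays alone, blocks and single arrays left out. Calls appeared under some. The Csta2 change from lavage day 7 to 14 was -2.24 with the compared arrays alone (limma adjusted p = 0.00469), with the replicate block (adjusted p = 0.0293) and, chosen after seeing the data, on just the 12 arrays of those slides with no block (adjusted p = 0.0193); it was -2.34 with median scaling (adjusted p = 0.0237) and -3.73 in the authors' values (adjusted p = 0.041). Slpi from day 4 to 7 was -0.70 with the compared arrays alone (limma adjusted p = 0.0493), and Wfdc21 at that step 1.03 on those 12 arrays (adjusted p = 0.0497). With median scaling Cst3 became 0.14 from day 4 to 7 and 0.86 from day 7 to 14. Leaving out single arrays gave, from day 2 to 4, -0.70 to 0.33 for Wfdc21, -1.20 to 0.91 for Csta2 and -0.067 to 0.035 for Cst3, and from day 4 to 7, -1.49 to 0.62 for Csta2 and -0.10 to 0.061 for Cst3, with 0 calls. Sign changes at day 2 to 4 came without the first array of lavage day 4, and for Wfdc21 and Cst3 also without the second of day 2. The Csta2 change from day 7 to 14 kept its direction, -2.64 to -1.84. It was called under 5 of its 13 alternatives, none of which left out a single array.

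For the described differences, 40 values a gene moved by more than the replicate SD in 17 cases for Wfdc21, 11 for Csta2, 6 for Slpi and 8 for Cst3; the sign changed in 2, both Cst3. Inhibitors called from lavage day 2 to 4 were 5 in the authors' values and 4 to 8 with single arrays left out; from day 7 to 14, 2 to 3; and between capsule and lavage at day 7, 7 to 12. Proteases called from day 2 to 4 were 3 with the compared arrays alone and 2 to 3 with arrays left out, and from day 7 to 14, 5 and 5 to 10. Interaction calls were 25 with median scaling and 9 to 16 with arrays left out. Of 1151 alternative values for 91 named list results, 1047 kept their call, 103 lost it and 1 turned: Ctss at day 14 between capsule and lavage, 0.034 with median scaling against -0.80. The replicate block, on those 12 arrays, also lost Ctse between capsule and lavage at day 7 (limma adjusted p = 0.0607). Tpsb2 from day 2 to 4 and Serpinb6b from day 7 to 14 were lost on those arrays with the block (adjusted p = 0.0503 and 0.096) and without it (0.055 and 0.0765). The cause of these changes was not tested. Another probe could not be tried, as each of the 4 genes has 1.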
